A study of Mus musculus with 6 samples.

Results

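The genes of 4 protein families that carry out and steer pre-mRNA splicing were examined in GC-2spd cells. This immortalized line was made from spermatocytes of the mouse. The members were the annotated mouse genes with symbols starting with Srsf (SR proteins), Hnrnp (hnRNP proteins), Snrp (Sm proteins and proteins of the U1 and U2 snRNPs) and Sf3a or Sf3b (the SF3A and SF3B complexes), without symbols marked as pseudogenes by "-ps". There were 53 such genes of 43412 annotated genes, namely 11 SR, 20 hnRNP, 13 Snrp and 9 SF3 genes. Left out were 3 "-ps" symbols, which reached at most 0.565 TPM. Normoxic cells (3 libraries) were kept at 21% O2 with CO2, and hypoxia-treated cells (3 libraries) at 1% O2 with CO2 and N2. Both groups were the same line, labelled C57BL/6J and testis, grown in DMEM with serum, and poly(A) RNA was sequenced in pairs. Low oxygen lasted 48 h in the hypoxia model, which the labels of these libraries do not restate. The labels call the libraries replicates but do not say that they came from separate cultures, so the p-values measure the spread between libraries, which may be technical.

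Splicing takes place on the spliceosome. The Sm proteins form a ring around the snRNAs, the U1 snRNP binds the 5′ splice site, and the U2 snRNP with SF3A and SF3B binds the branch site. SR proteins bind exons and mostly promote the use of nearby splice sites, whereas many hnRNP proteins coat the pre-mRNA and mostly repress them, and the balance between both classes is known to shift alternative splicing. In the testis, alternative splicing is extensive, and the switch between isoforms is a known part of spermatogenesis.

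Expression was read as TPM, which sets a gene's transcripts against the whole transcript pool and corrects for length. TPM is a share of all RNA in a library, so that in a bulk sample fewer cells of a kind and less RNA per cell cannot be told apart. Aligned bases ranged from 5.75 to 6.61 gigabases per normoxic library and 5.80 to 6.72 gigabases per hypoxic library. The share of TPM outside annotated genes was 2.19% ± 0.49 in normoxic and 3.84% ± 1.45 in hypoxia-treated cells (SD, n = 3). As a check of the treatment, 9 of 9 listed genes of the hypoxic response were higher in hypoxia-treated cells, among them Ndrg1, a stress-induced gene, at 67.3 to 77.2 TPM in normoxic and 548 to 601 TPM in hypoxia-treated libraries. The labelled origin was not reflected in markers, since 12 of 12 germ cell and spermatocyte genes stayed below 1 TPM in every library (summed 0.764 to 1.32 TPM in normoxia and 0.711 to 1.09 TPM in hypoxia, with Mael, Sycp1, Stra8, Hormad1 and Tex11 listed at 0), as did 8 of 8 spermatid genes. Of 8 fibroblast and stromal genes, 3 stayed below 1 TPM, and the list summed to 2272 to 2340 TPM in normoxia and 2700 to 2960 TPM in hypoxia, mostly through the collagen genes Col1a1, which was higher in hypoxia, and Col1a2, which was not called, while the receptor genes Pdgfra and Pdgfrb were lower. Of 6 Sertoli genes 4 stayed below 1 TPM (sums 39.0 to 51.1 and 41.5 to 53.1 TPM), and of 5 macrophage genes 2 (Ptprc and Adgre1) were listed at 0 (sums 25.0 to 28.2 and 20.1 to 21.6 TPM). The part of these lists in the results was not tested.

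Most splicing factor genes that changed were lower in hypoxia-treated GC-2spd cells. They were led by the SR protein genes Srsf3, Srsf7 and Srsf2 and the hnRNP genes Hnrnpm and Hnrnpab. Hnrnpa1 and Sf3b1 were higher. The groups of Sf3b1 overlapped, and its call was lost when any 1 of 4 libraries was left out. Hnrnpm and Hnrnpa1 were not called for the loci assembled from the reads (adjusted p = 0.193 and 0.0551 from limma). Of 51 tested members, 27 were lower, 5 were higher and 19 did not pass the test (limma on log2(TPM + 1), adjusted p under 0.05). Across all 13749 tested genes, 36.1% were lower and 17.9% were higher, and the members' shares were 52.9% and 9.80%. Among genes with a mean of at least 50 TPM, where 45 of the members lie, the background was 36.9% lower and 26.9% higher. The median log2 fold change was −0.21 for the members and −0.13 for all tested genes. That median of all genes moved to 0.0014 when the libraries were scaled by their median ratio, and then 18 members were lower and 9 higher against a background of 26.3% and 26.2%. With quantile normalization 24 members were lower and 6 higher against 26.5% and 26.0%.

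The normoxic and hypoxic libraries did not overlap for 28 members that were lower and 6 that were higher, against 41.0% and 21.4% of all tested genes. Changes were small. Only Srsf3 changed at least 2-fold among the called members. The other tested members spread between log2 fold changes of −0.96 (Hnrnpm) and 0.57 (Sf3b1). All tested members were well expressed, with mean levels from 26.8 to 1193 TPM and a median of 129 TPM, against 20.7 TPM for all tested genes. Srsf12 and Snrpn, which encodes a variant of SmB known from brain and heart, were listed at 0 TPM in all 6 libraries and were not tested.

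**Figure D1:**
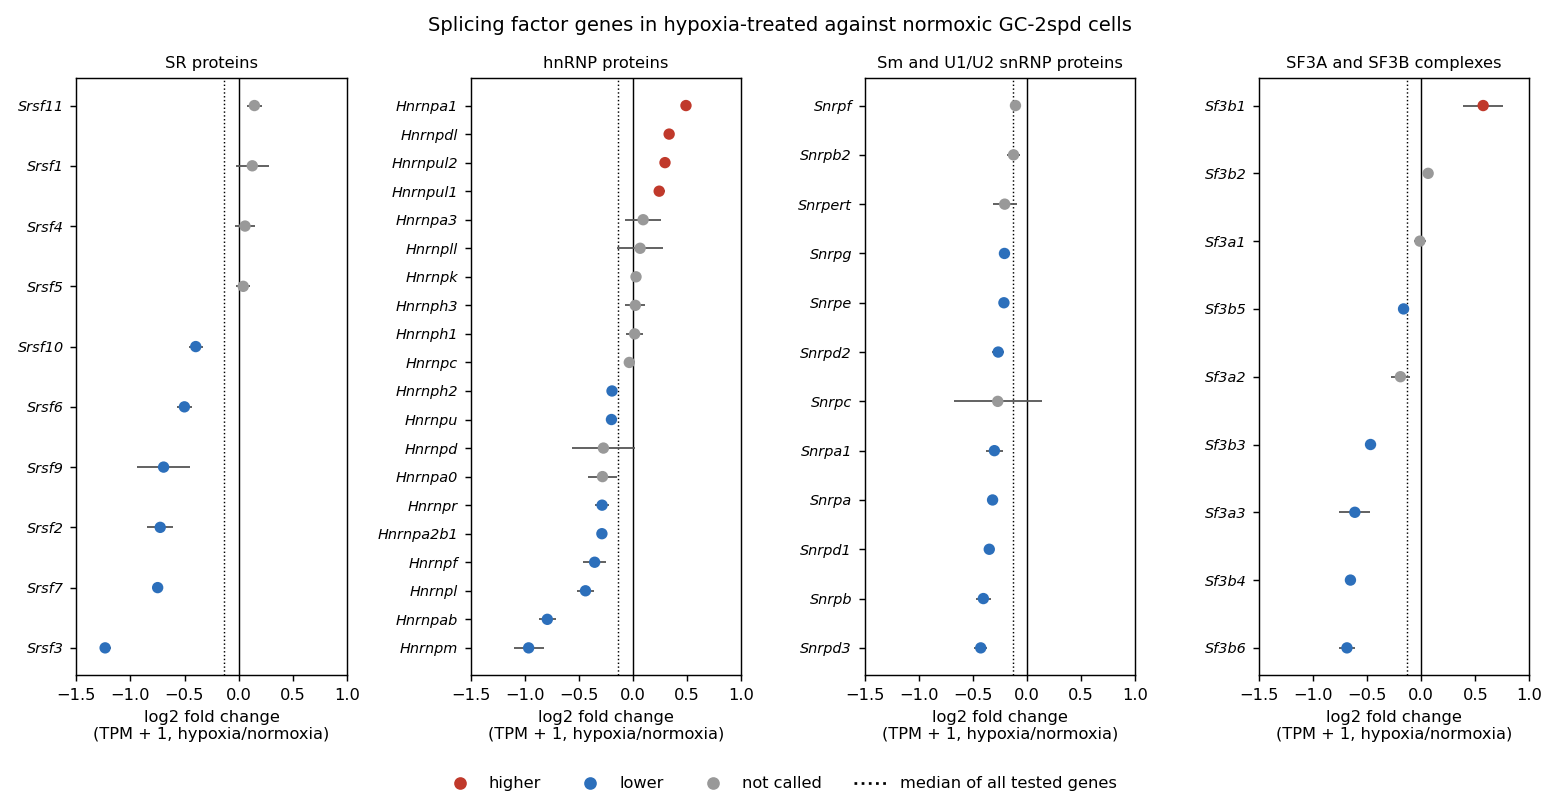
Log2 fold change (TPM + 1, hypoxia over normoxia) of the 51 tested genes in 4 panels, for the SR, hnRNP, Sm and U1/U2 snRNP, and SF3 families. Points are limma estimates coloured by call, bars are standard errors, the solid line is 0 and the dotted line is the median of all tested genes at −0.13. Srsf3 lies farthest to the left at −1.23 and Sf3b1 farthest to the right at 0.57.

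The summed TPM of a family gives its share of the transcript pool. The SR genes summed to 1686, 1581 and 1580 TPM in the normoxic libraries and to 1262, 1210 and 1295 TPM in the hypoxic ones, a ratio of means of 0.777. The Snrp genes went from 1991 ± 58.2 to 1661 ± 35.9 TPM (SD, n = 3), a ratio of 0.834, and the hnRNP genes from 5649 ± 91.8 to 5264 ± 127 TPM (SD, n = 3), a ratio of 0.932. In these 3 families no hypoxic library reached the lowest normoxic one. For the SF3 genes the libraries overlapped, at 855 ± 24.6 and 824 ± 41.1 TPM (SD, n = 3). All members together took 1.02% to 1.06% of annotated TPM in normoxic and 0.931% to 0.943% in hypoxia-treated libraries. The directions depended in part on scaling. With the libraries scaled by their median ratio, which was chosen after seeing the data, the SR and Snrp sums stayed lower in every hypoxic library (ratios of means 0.860 and 0.924), whereas the hnRNP and SF3 sums were higher in every hypoxic library (1.03 and 1.07) and those of all members overlapped (0.986). The 4 family sums were not tested.

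To show what lies in front of genes that changed in each direction, the 150 bases before the RefSeq transcription start (GRCm38.p6, the assembly that mm10 names) are given for 4 strongly lowered genes, Srsf2, Srsf3, Srsf7 and Hnrnpab, and for the 2 most raised, Hnrnpa1 and Sf3b1. They read 5′ to 3′ toward the gene. Capitals mark the CCAAT box, on either strand (it reads ATTGG on the other). They also mark the letters TATAAA of the TATA element, as well as the core of the hypoxia response element, which has the letters ACGTG. Every motif was searched on both strands.
Srsf2, minus strand, chr11:116853095-116853244: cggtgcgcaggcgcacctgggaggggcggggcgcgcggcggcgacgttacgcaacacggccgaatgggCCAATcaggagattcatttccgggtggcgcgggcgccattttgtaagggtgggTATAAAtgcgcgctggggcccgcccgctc
Srsf3, plus strand, chr17:29032510-29032659: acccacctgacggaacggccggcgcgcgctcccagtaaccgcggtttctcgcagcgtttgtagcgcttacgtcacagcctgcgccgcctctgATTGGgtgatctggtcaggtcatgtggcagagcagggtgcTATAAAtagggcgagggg
Srsf7, minus strand, chr17:80207306-80207455: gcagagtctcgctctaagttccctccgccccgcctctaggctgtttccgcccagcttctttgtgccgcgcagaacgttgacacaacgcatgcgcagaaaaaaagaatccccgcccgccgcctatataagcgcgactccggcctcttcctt
Hnrnpab, minus strand, chr11:51606882-51607031: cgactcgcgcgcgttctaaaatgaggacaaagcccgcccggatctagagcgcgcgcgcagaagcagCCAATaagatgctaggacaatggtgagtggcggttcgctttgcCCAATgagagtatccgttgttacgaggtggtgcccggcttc
Hnrnpa1, plus strand, chr15:103240247-103240396: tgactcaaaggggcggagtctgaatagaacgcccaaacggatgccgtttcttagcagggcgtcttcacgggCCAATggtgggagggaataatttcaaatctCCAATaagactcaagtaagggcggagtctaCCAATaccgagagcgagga
Sf3b1, minus strand, chr1:55027479-55027628: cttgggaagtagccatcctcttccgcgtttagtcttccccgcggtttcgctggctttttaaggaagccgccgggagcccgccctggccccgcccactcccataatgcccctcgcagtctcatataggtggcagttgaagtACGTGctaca

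Windows were found for 46 of the 53 members, and motifs were counted in the 250 bases before the start. The RefSeq start lay within 100 bases of the annotated gene's start for 35 of the 46, but 1402 bases away for Hnrnpm. Members with several windows were read at the nearest one, whereas all RefSeq genes were read at the first listed, so the percentages are not fully alike. TATAAA was in 5 windows (10.9%, against 13.0% of 27025 RefSeq genes), and all 5 belong to lowered genes, namely Srsf2, Srsf3, Hnrnpm, Snrpa and Sf3b3. It was in 0 of 4 windows of raised genes and in 0 of 17 of genes that were not called. CCAAT was in 20 windows (43.5%, against 34.5%), of which 11 were among 23 lowered genes and 2 among 4 raised genes. ACGTG was in 12 windows (26.1%, against 16.6%), of which 5 belonged to lowered and 2 to raised genes. The E-box CACGTG, which contains ACGTG, was in 3 (6.52%, against 6.05%). These counts describe letters in a window and were not tested.

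Srsf3, which encodes the smallest of the classical SR proteins and acts in splicing and mRNA export, fell further than any other member. The gene lies on the plus strand of chromosome 17 (mm10, 29032673 to 29043366, ENSMUSG00000071172), 13 bases past the start used for the promoter shown above. It was at 204, 195 and 187 TPM in the normoxic libraries and at 79.9, 81.6 and 85.8 TPM in the hypoxic ones. The lowest normoxic library was at more than 2 times the level of the highest hypoxic one. The log2 fold change was −1.23 ± 0.05 (standard error; limma adjusted p = 7.28e-06), and −1.09 with median-ratio scaling.

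Srsf7, the closest paralog of Srsf3 (chromosome 17, 80200089 to 80207305, minus strand), was at 166, 166 and 158 TPM in normoxia and at 97.5, 97.7 and 95.0 TPM in hypoxia. The log2 fold change was −0.75 (standard error 0.04, adjusted p = 2.25e-05 from limma). The libraries of each group lay close together and far from the other group. Srsf2, also known as SC35 and a component of nuclear speckles (chromosome 11, 116849901 to 116853094, minus strand), had the highest SR mean, just ahead of Srsf1, at 360.2, 313 and 322 TPM in normoxia and 179, 185 and 242 TPM in hypoxia. The limma log2 fold change was −0.72 (standard error 0.12, adjusted p = 0.00235). Its groups stayed apart although hypoxia replicate 3 lay well above the others. Srsf2 overlaps Mettl23 and Mfsd11 on the opposite strand, at 36.3 and 15.9 TPM on average, which makes its value uncertain because the sources do not say whether counting used strand.

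Srsf6, a regulator of exon choice, went from 144, 126 and 134 TPM to 90.3, 101 and 92.8 TPM, without overlap (log2 fold change −0.50, adjusted p = 0.000883 from limma). Srsf10, which turns into a splicing repressor when it loses its phosphates, went from 86.0 ± 6.41 to 65.0 ± 2.55 TPM (SD, n = 3) and passed the limma test (adjusted p = 0.00233). Srsf9 was at 131, 74.1 and 81.5 TPM in normoxia and 52.7, 46.8 and 74.2 TPM in hypoxia. Normoxia replicate 1 stood above all others, and hypoxia replicate 3 reached the normoxic range. Its adjusted p of 0.0499 from limma was lost without normoxia replicate 1 (0.105) or 3 (0.0654), or hypoxia replicate 1 (0.126) or 2 (0.14), and with either scaling (0.0943 and 0.0756).

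The other SR genes did not pass the test. Srsf1, also known as SF2/ASF, was at 231, 277 and 250.1 TPM in normoxia and 347, 265 and 227 TPM in hypoxia, and the groups overlapped. Srsf4 was at 60.1, 60.8 and 63.8 TPM in normoxia and 55.2, 69.0 and 69.4 TPM in hypoxia. It passed the test without hypoxia replicate 1 (log2 fold change 0.17, adjusted p = 0.0433 from limma). Srsf5 and Srsf11 had log2 fold changes of 0.04 and 0.15, and both were higher with median-ratio scaling (adjusted p = 0.0246 and 0.00919 from limma). In all, 6 of 10 tested SR genes were lower and 0 were higher, against 36.1% and 17.9% of all tested genes. Their median log2 fold change of −0.45 stayed below 0 with median-ratio scaling (−0.30, 5 lower and 2 higher). With quantile normalization it was −0.38 (5 lower and 1 higher).

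**Figure D2:**
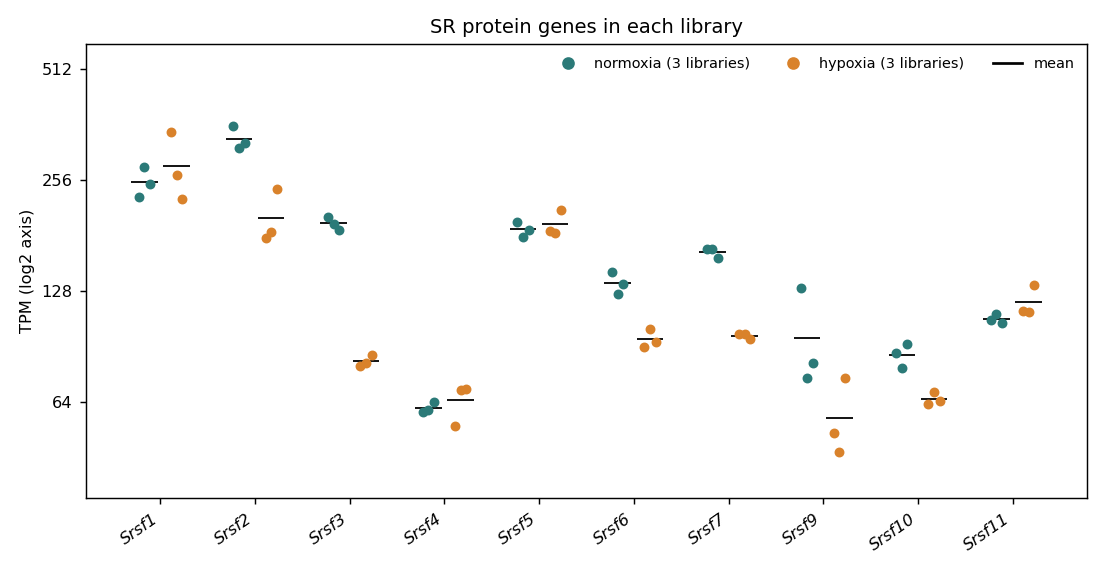
TPM (log2 axis) of the 10 tested SR protein genes in each of the 3 normoxic and 3 hypoxic libraries, with the mean of each group as a bar. The groups are apart for Srsf2, Srsf3, Srsf6, Srsf7 and Srsf10 (lower) and Srsf11 (higher, not called), and overlap for Srsf1, Srsf4, Srsf5 and Srsf9.

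StringTie also lists loci assembled from the reads, which can hold transcripts outside the annotation. Each annotated gene was set against the locus with the longest overlap. Because both are listed apart, this ratio is not a part of a whole. It reached 153% for Hnrnpa1 in normoxia replicate 1. For Srsf3 the annotated gene was at 89.2%, 94.8% and 88.8% of the TPM of its assembled locus in normoxia. In hypoxia it was at 77.5%, 77.7% and 76.6%. For Srsf5 the ratio went from 97.8%, 97.4% and 97.5% to 80.3%, 77.8% and 80.3%. The ratio was lower in every hypoxic library of both genes, and what lies behind that was not tested. On the level of the assembled locus, an alternative chosen after seeing the data, Srsf3 was still lower (log2 fold change −1.002, adjusted p = 0.00023 from limma), Srsf7 was lower (−0.65), and Srsf5 was higher (0.34, adjusted p = 0.0105).

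The hnRNP genes moved both ways in hypoxia-treated cells. Of 20 tested genes, 8 were lower and 4 were higher, which is near the 36.1% and 17.9% of all tested genes. The family had a median log2 fold change of −0.11 that turned to 0.03 with median-ratio scaling (4 lower, 5 higher) and was −0.06 with quantile normalization (8 lower, 4 higher). Hnrnpab, which binds single-stranded DNA and RNA (chromosome 11, 51600100 to 51606847, minus strand), was at 960, 814 and 766 TPM in normoxia and 476, 495 and 489.8 TPM in hypoxia. The log2 fold change was −0.79 (standard error 0.08, adjusted p = 0.000271 from limma). The hypoxic libraries lay within a narrow range well below the normoxic ones. Hnrnpab overlaps Phykpl on the opposite strand, at 7.51 TPM on average.

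Hnrnpm, a protein of the hnRNP core that also regulates exon skipping (chromosome 17, 33646233 to 33686860, minus strand), was at 206, 195 and 174 TPM in normoxia and 92.2, 121 and 83.3 TPM in hypoxia. The groups did not overlap, and the difference was −0.96 on the log2 scale (standard error 0.14, adjusted p = 0.00118 from limma). Its assembled locus did not show the same. The locus held 217, 193 and 197 TPM in normoxia and 129.8, 133 and 216 TPM in hypoxia, where replicate 3 was as high as normoxia, and the log2 fold change there was −0.38 (adjusted p = 0.193 from limma). Hnrnpm also overlaps March2 on the same strand, at 24.0 TPM on average.

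Hnrnpa2b1 and Hnrnpa1, close paralogs that bind similar sequences, moved in opposite directions. Hnrnpa1, which often acts against SR proteins at exons (chromosome 15, 103240432 to 103244955, plus strand), was the most abundant of all members, at 951, 1029 and 997 TPM in normoxia and 1348, 1462 and 1375 TPM in hypoxia. The log2 fold change was 0.49 (standard error 0.05, adjusted p = 0.000184 from limma), and 0.25 with quantile normalization (adjusted p = 0.0135). For the assembled locus it was 0.67, with an adjusted p of 0.0551 from limma, and there the locus of normoxia replicate 1 was listed at 620 TPM, less than the annotated gene. Hnrnpa2b1 was at 694, 676 and 756 TPM in normoxia and 574, 569 and 598 TPM in hypoxia, without overlap (log2 fold change −0.29, adjusted p = 0.00288 from limma). The ratio of Hnrnpa1 to Hnrnpa2b1 within a library does not depend on scaling, and it went from 1.40 ± 0.106 to 2.40 ± 0.144 (SD, n = 3) without overlap.

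The other raised hnRNP genes were Hnrnpdl, a paralog of Hnrnpd, and the U-like genes Hnrnpul2 and Hnrnpul1. Hnrnpdl was at 108, 102 and 108 TPM in normoxia and 138, 129.6 and 135 TPM in hypoxia (log2 fold change 0.34, adjusted p = 0.000894 from limma). Hnrnpul2 was at 118, 111 and 118 TPM in normoxia and 144, 138 and 144 TPM in hypoxia (0.30, adjusted p = 0.00145). For both, every hypoxic library was above every normoxic one. Hnrnpul1 had a log2 fold change of 0.24 (adjusted p = 0.00719 from limma), also without overlap. These 3 genes kept the call with both scalings.

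Hnrnpl, which binds CA-rich RNA, went from 275, 247 and 254 TPM to 198, 205 and 170.3 TPM without overlap (log2 fold change −0.44, adjusted p = 0.00319 from limma). Its paralog Hnrnpll was at 77.4, 81.5 and 50.6 TPM in normoxia and 56.9, 83.4 and 77.6 TPM in hypoxia, and did not pass the test. Hnrnph2, which binds G-rich RNA, went from 92.1 ± 1.65 to 80.5 ± 1.06 TPM (SD, n = 3), an adjusted p of 0.00621 from limma that was 0.372 with median-ratio scaling. Its paralog Hnrnph1 stayed at 301 ± 29.0 and 304 ± 18.1 TPM (SD, n = 3), with a log2 fold change of 0.017 whose sign depended on the setting. The remaining lowered genes were Hnrnpf, Hnrnpr and Hnrnpu, with log2 fold changes from −0.35 to −0.20, and their calls were lost with median-ratio scaling. Hnrnpf was not called either when normoxia replicate 2 or 3 was left out (limma adjusted p = 0.0638 and 0.0755).

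Hnrnpd, a protein of AU-rich RNA also called AUF1, was at 97.4, 90.5 and 133 TPM in normoxia and 95.6, 55.5 and 125 TPM in hypoxia. The groups overlapped widely. In hypoxia replicate 2 the annotated gene was at only 41.7% of the TPM of its assembled locus, against 85.0% to 100% in the other libraries. Hnrnpa0 was not called (log2 fold change −0.28, adjusted p = 0.123 from limma), but it was lower without hypoxia replicate 3 (adjusted p = 0.00106), and for its assembled locus the sign turned (0.30, adjusted p = 0.29). The annotated Hnrnpa0 was at 100% of the TPM of its locus in each normoxic library and at 72.4%, 68.2% and 59.7% in the hypoxic ones. Hnrnpc, Hnrnph3, Hnrnpk, Hnrnpa3 and Hnrnph1 had log2 fold changes between −0.03 and 0.10. Hnrnpk was higher with median-ratio scaling (adjusted p = 0.00542 from limma), and Hnrnpa3 was higher without hypoxia replicate 1 (adjusted p = 0.0257 from limma).

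**Figure D3:**
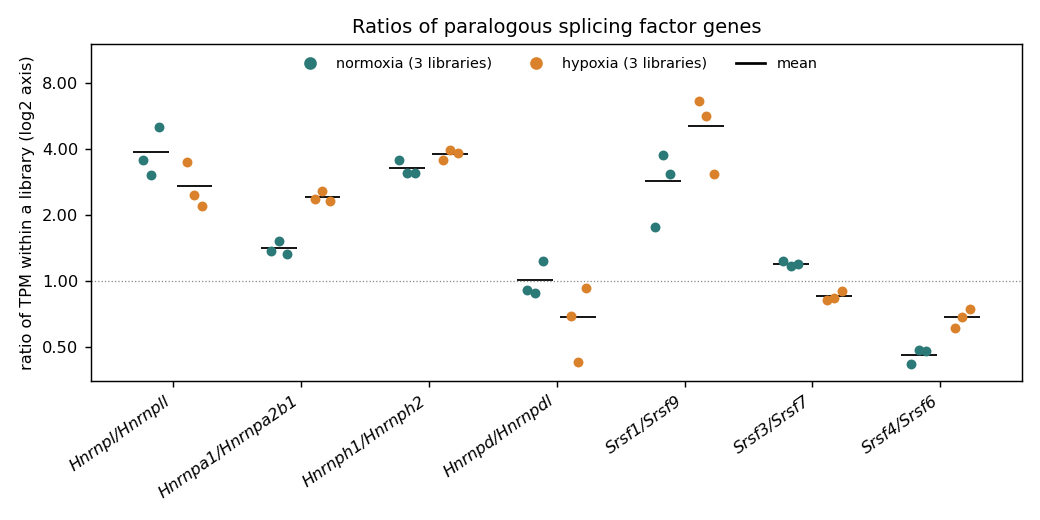
Ratio of TPM of 7 pairs of related genes within each library (log2 axis), with the mean of each group as a bar and a dotted line at 1. The groups are apart for Hnrnpa1/Hnrnpa2b1 (1.40 to 2.40), Srsf3/Srsf7 (1.20 to 0.852) and Srsf4/Srsf6 (0.459 to 0.681), and overlap for the other pairs.

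Pairs of related genes were compared within libraries. Srsf3 to Srsf7 went from 1.20 ± 0.029 to 0.852 ± 0.045, so that the gene that was ahead in normoxia was behind in hypoxia, in 3 of 3 libraries of each group. Srsf4 to Srsf6 went from 0.459 ± 0.037 to 0.681 ± 0.068 (SD, n = 3 for each). In 4 pairs the groups overlapped, namely Hnrnpl/Hnrnpll (3.86 ± 1.04 and 2.71 ± 0.677), Hnrnph1/Hnrnph2 (3.26 ± 0.263 and 3.77 ± 0.211), Hnrnpd/Hnrnpdl (1.01 ± 0.197 and 0.682 ± 0.25) and Srsf1/Srsf9 (2.86 ± 1.00 and 5.10 ± 1.82). The ratio of Snrpn to Snrpb was not formed because Snrpn was listed at 0.

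The Sm and snRNP protein genes fell by small amounts. Of 12 tested Snrp genes, 8 were lower and 0 were higher, against 36.1% and 17.9% of all tested genes. Their median log2 fold change was −0.27. The groups did not overlap for 9, all of them lower, against 41.0% of all tested genes. With median-ratio scaling 5 were lower (median −0.12), against 26.3% of all tested genes. With quantile normalization 7 were lower (−0.22), against 26.5%. Snrpd1, the SmD1 gene, was at 261, 247 and 243 TPM in normoxia and 196, 192 and 201 TPM in hypoxia (log2 fold change −0.35, standard error 0.04, adjusted p = 0.000553 from limma). Snrpd3, the SmD3 gene (chromosome 10, 75517551 to 75537373, plus strand), was at 71.6, 68.0 and 70.9 TPM in normoxia and 49.2, 55.6 and 51.0 TPM in hypoxia (−0.43, adjusted p = 0.00102). In both genes the groups were well separated.

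Snrpb, which encodes SmB, was at 246, 263 and 274 TPM in normoxia and 193, 184 and 214 TPM in hypoxia (log2 fold change −0.40, adjusted p = 0.0023 from limma). Snrpg, the SmG gene and the most abundant of the family, was at 404, 369.8 and 367 TPM in normoxia and 326, 333 and 327 TPM in hypoxia (−0.21, adjusted p = 0.00799). All hypoxic libraries of both were below all normoxic ones. The call of Snrpg was lost with median-ratio scaling (adjusted p = 0.262 from limma), as was that of Snrpe, the SmE gene (0.271), while Snrpd2, the SmD2 gene, kept it (0.0432). Snrpf, the SmF gene, had a log2 fold change of −0.11 and an adjusted p of 0.112 from limma, although its groups did not overlap.

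Among the proteins specific to U1, Snrpa (the A protein of U1, chromosome 7, 27187005 to 27196271, minus strand) went from 121, 122 and 121 TPM to 101, 97.1 and 93.5 TPM, without overlap (log2 fold change −0.32, adjusted p = 0.000946 from limma). Snrpa overlaps BC024978 on the opposite strand, at 3.39 TPM. Snrpc (the C protein of U1) varied too much to be called, at 110.4, 71.1 and 104 TPM in normoxia and 153, 54.3 and 55.5 TPM in hypoxia. The annotated gene was at 34.7% to 94.2% of the TPM of its assembled locus. The locus itself was at 184, 196 and 167 TPM in normoxia and 163, 132 and 159.6 TPM in hypoxia. Without hypoxia replicate 1 Snrpc was lower (adjusted p = 0.0208 from limma).

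Of the U2 proteins, Snrpa1 (the A′ protein) was lower (log2 fold change −0.30, adjusted p = 0.0173 from limma), a call that was lost without hypoxia replicate 1 (0.051) or 3 (0.0509) and with both scalings, and Snrpb2 (the B″ protein) was not called (−0.12, adjusted p = 0.116). Snrpert is annotated as a processed pseudogene that shares sequence with Snrpe and lies within Rnf24 on the same strand. Its 31.2 to 36.0 TPM in the group means are therefore uncertain, and it was not called.

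**Figure D4:**
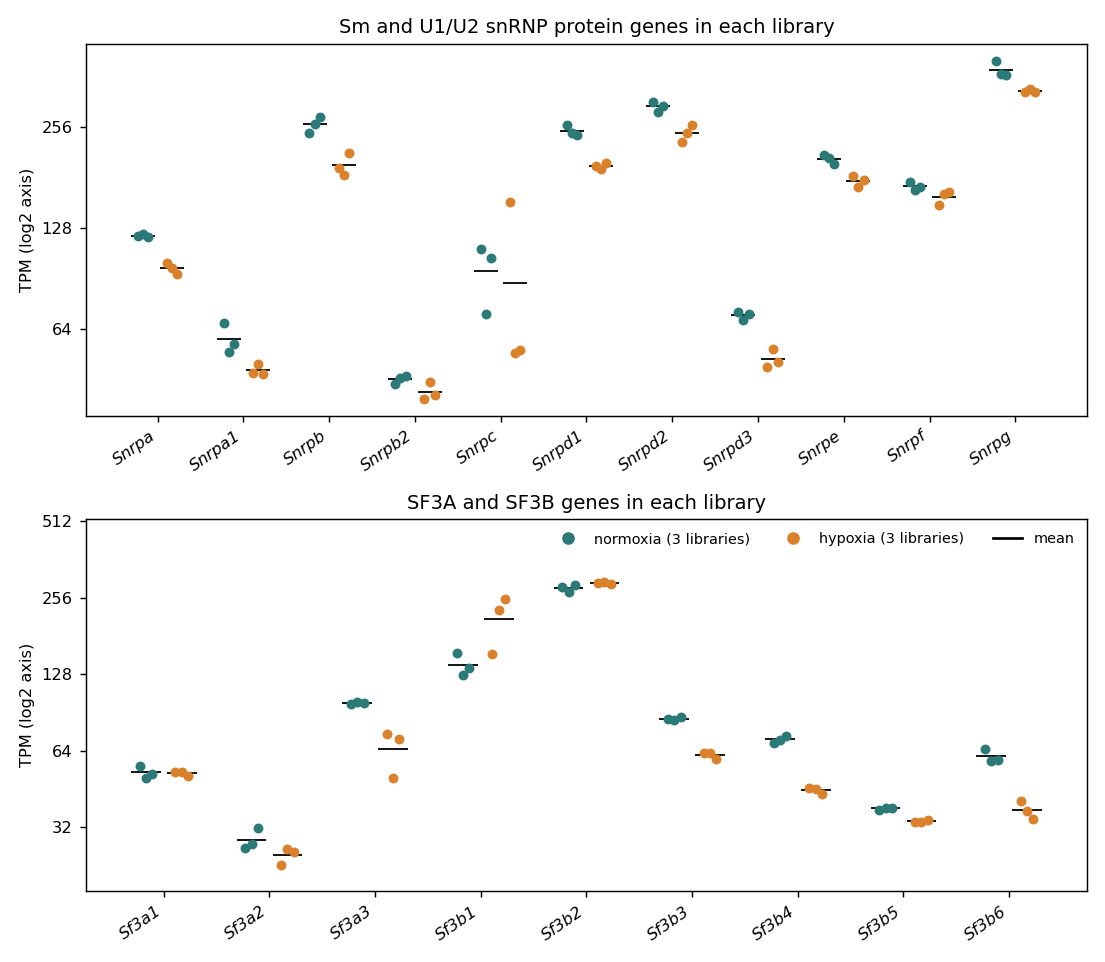
TPM (log2 axis) of the Sm and U1/U2 snRNP protein genes (upper panel, without Snrpert and Snrpn) and the SF3A and SF3B genes (lower panel) in each of the 6 libraries, with the mean of each group as a bar. Hypoxic libraries sit just below normoxic ones for most genes, Sf3b1 lies higher in hypoxia replicates 2 and 3 (229 and 252 TPM), and Snrpc is spread from 54.3 to 153 TPM in hypoxia.

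The called genes of the SF3 complexes did not all move the same way. Most subunits that were called fell, but Sf3b1, the large subunit that holds the branch site, was higher. Of 9 tested genes, 5 were lower and 1 was higher (55.6% and 11.1%, background 36.1% and 17.9%), at a median log2 fold change of −0.19. Median-ratio scaling left 4 lower and 2 higher (background 26.3% and 26.2%), and the family median was then −0.05. Quantile normalization left 4 and 1 (background 26.5% and 26.0%), and the family median was then −0.03. Sf3b4, an RNA-binding subunit (chromosome 3, 96172332 to 96177564, plus strand), was at 68.7, 70.9 and 73.5 TPM in normoxia and 45.8, 45.2 and 43.2 TPM in hypoxia (−0.65, standard error 0.05, adjusted p = 8.03e-05 from limma). The groups were tight and far apart. The assembled locus of Sf3b4 was at 74.4 TPM in hypoxia replicate 1, however, and at 45.3 and 43.1 TPM in the other hypoxic libraries, and the gene was not called on that level (−0.44, adjusted p = 0.15 from limma).

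Sf3b3, a structural subunit, went from 85.8, 84.5 and 87.0 TPM to 62.7, 63.0 and 59.4 TPM (log2 fold change −0.47, adjusted p = 0.000207 from limma), and it overlaps Cog4 on the opposite strand (31.2 TPM). Sf3b6, the p14 subunit at the branch adenosine, went from 65.1, 58.5 and 58.9 TPM to 40.8, 37.0 and 34.5 TPM (−0.69, adjusted p = 0.000412). For both, no hypoxic library reached the normoxic range. Sf3a3 was lower as well (−0.61, adjusted p = 0.0101 from limma, and −0.21 with an adjusted p of 0.335 for its assembled locus). The call of Sf3b5 (−0.16, adjusted p = 0.0226 from limma) was lost with both scalings and without normoxia replicate 2 (0.0599) or 3 (0.0688), or hypoxia replicate 1 (0.0574) or 2 (0.0647).

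Sf3b1 (chromosome 1, 54985169 to 55027481, minus strand) was at 155, 127 and 136 TPM in normoxia and 154, 229 and 252 TPM in hypoxia. Hypoxia replicate 1 lay within the normoxic range and the other hypoxic libraries far above it. The log2 fold change was 0.57 (standard error 0.18, adjusted p = 0.034 from limma), and the call was lost without normoxia replicate 2 (0.0965) or 3 (0.0814), or hypoxia replicate 2 (0.0984) or 3 (0.0935). On the level of the assembled locus the groups were apart. The locus was at 155, 132 and 136 TPM in normoxia and 258, 235.5 and 252 TPM in hypoxia. In hypoxia replicate 1 the annotated gene was at only 59.6% of the TPM of the locus. The log2 fold change of the locus was 0.82 (adjusted p = 0.000865 from limma).

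Sf3b2, the most abundant gene of the family, was at 281, 270.5 and 288 TPM in normoxia and 293, 296 and 289 TPM in hypoxia. The hypoxic libraries were all just above the normoxic ones, the log2 fold change was 0.06 (adjusted p = 0.197 from limma), and with median-ratio scaling it was 0.21 (adjusted p = 0.00358). Sf3a1 had a log2 fold change of −0.013. Sf3a2, at −0.19 and not called (adjusted p = 0.104 from limma), overlaps the more abundant Plekhj1 on the opposite strand (59.1 TPM) and is uncertain.

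The rest of the splicing pathway was described by 8 lists with 175 tested genes in all, of which 59 were lower and 44 were higher (33.7% and 25.1%, against 36.1% and 17.9% of all tested genes), with a median log2 fold change of −0.04. The lists of SMN assembly and of other U1, U2 and tri-snRNP proteins leaned the way of the Snrp family. The minor spliceosome list, described below, did not. A list of 19 genes was drawn around SMN and methylosome assembly, in which the Sm ring is loaded onto snRNA. It also holds genes with other roles, such as Larp7 and Sart3. Of the 19, 12 were lower and 3 higher (median −0.42). The counts were 10 and 3 under median-ratio scaling (−0.28) and 10 and 4 under quantile normalization (−0.30). Larp7, which binds U6 and 7SK RNA, went from 88.6 ± 1.74 to 59.0 ± 1.49 TPM, and Gemin4 of the SMN complex from 28.2 ± 1.21 to 6.51 ± 0.492 TPM (SD, n = 3). Gemin4 overlaps Glod4 on the same strand and was not called for its assembled locus (adjusted p = 0.476 from limma). Higher were Sart3, which recycles U6, at 59.5 ± 2.26 and 76.3 ± 1.47 TPM (SD, n = 3), and Ddx20, which was not called when normoxia replicates 2 or 3 (limma adjusted p = 0.0724 and 0.0702) or hypoxia replicates 2 or 3 (0.066 and 0.0677) were left out.

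Of 26 other proteins of U1, U2 and the U4/U6.U5 tri-snRNP, 13 were lower and 3 higher (median −0.24), with 12 and 6 under median-ratio scaling (−0.098) and 12 and 5 under quantile normalization (−0.18). Prpf31, of the tri-snRNP, went from 46.5 ± 0.82 to 23.8 ± 0.602 TPM and U2af1, which reads the 3′ splice site with U2af2, from 177 ± 11.1 to 117 ± 4.80 TPM. Luc7l3, a U1-associated protein, rose from 102 ± 13.8 to 191 ± 5.25 TPM, and Prpf8, the core of the U5 snRNP, from 176 ± 7.50 to 202 ± 3.21 TPM (SD, n = 3), though not for its assembled locus (adjusted p = 0.235 from limma). Of 10 LSm genes, whose proteins form rings on U6 and other RNAs, 5 were lower and 1 higher (median −0.19). The counts were 4 and 1 under median-ratio scaling (−0.04) and 5 and 1 under quantile normalization (−0.16). Among the lower were Lsm7 (99.6 ± 14.4 to 57.8 ± 2.32 TPM) and Lsm6 (61.5 ± 5.42 to 44.0 ± 1.13 TPM, adjusted p = 0.0874 from limma for its assembled locus). Lsm11, of the U7 snRNP, rose from 8.65 ± 0.135 to 11.2 ± 0.702 TPM (SD, n = 3) and was alone in doing so.

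The kinases that phosphorylate SR proteins and the SR-related proteins leaned the other way from the SR genes. Of 23 tested, 11 were higher and 4 lower (median 0.07), against 17.9% and 36.1% of all tested genes. With median-ratio scaling 13 were higher and 1 lower (0.22), against 26.2% and 26.3%. With quantile normalization 12 were higher and 2 lower (0.21), against 26.0% and 26.5%. Rsrp1, an arginine- and serine-rich protein gene, rose from 171, 157 and 183 TPM to 471, 492 and 440.4 TPM (log2 fold change 1.45, adjusted p = 1.34e-05 from limma). Clk3, a kinase of SR proteins, rose from 51.4 ± 0.308 to 92.0 ± 5.38 TPM (SD, n = 3), and it overlaps Edc3 on the opposite strand. Its relatives Clk1 and Clk4, named after their values were seen, had log2 fold changes of 0.80 and 0.86. Clk2 was not called (0.018, adjusted p = 0.874 from limma). The SR protein kinase Srpk1 was lower (−0.31, adjusted p = 0.0489 from limma), a call that was lost with both scalings. Its relative Srpk2 was higher (0.24, adjusted p = 0.00551 from limma) and stayed higher with both scalings. Son, a scaffold of nuclear speckles that overlaps Donson on the opposite strand, went from 111 ± 7.90 to 76.5 ± 6.13 TPM, and Tra2a was lower by a log2 fold change of −0.17 that was lost with median-ratio scaling (adjusted p = 0.515 from limma).

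The other lists moved both ways, and apart from the minor spliceosome their balance depended on scaling. Among 42 other regulators the 12 higher and 12 lower genes became 18 and 9 with median-ratio scaling and 16 and 10 with quantile normalization, and among 30 genes of the activated spliceosome the 5 higher and 7 lower became 11 and 6 (median from −0.05 to 0.09) and 9 and 7 (0.07). Of 42 other regulators of alternative splicing, 12 were higher, such as Mbnl2 (log2 fold change 0.59) and Pcbp2 (0.37). Pcbp2, at 432 and 558 TPM in the group means, holds Gm27406 on its strand, at 346 TPM on average. It had no value for its assembled locus. The 12 lower genes included the paraspeckle gene Pspc1 (−1.53) and Rbm10 (−0.61). Rbm10, at 44.8 and 28.9 TPM, overlaps the more abundant Ndufb11 (134 TPM) on the opposite strand. Of 30 genes of the activated spliceosome, 5 were higher, such as Rbm22 (0.52), and 7 lower, such as Prpf38a (−0.49) and Bud31 (−0.68, not called for its assembled locus, adjusted p = 0.549 from limma). Prpf39 (0.26) overlaps the more abundant Fkbp3 on the opposite strand and lost its call without normoxia replicate 2 (0.0903) or 3 (0.0557), or hypoxia replicate 2 (0.0768) or 3 (0.0895). The minor spliceosome, which removes rare introns, had 12 tested genes. Of these, 4 were higher, such as Snrnp48 (0.61) and Zrsr1 (0.40), and 2 lower, namely Zmat5 (−0.67) and Scnm1 (−0.17). Zrsr1 overlaps the more abundant Gm28048 (47.2 TPM) and also Commd1 (17.9 TPM) on the opposite strand, so its value is uncertain. Scnm1 lost its call with both scalings and without normoxia replicate 1 (0.0852) or 3 (0.121), or hypoxia replicate 2 (0.0899) or 3 (0.101). Of 13 exon junction complex genes, which mark spliced mRNA, 5 were higher, such as Casc3 (0.20), and 4 lower, namely Magoh (−0.70), Rbm8a (−0.54), Eif4a3 and Magohb. With either scaling 7 were higher and 3 lower. Casc3 overlaps Msl1 on the same strand, at 68.8 TPM on average, and had no value for its assembled locus. Rbm8a was not called for its assembled locus, where its sign turned (0.51, adjusted p = 0.181 from limma).

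**Figure D5:**
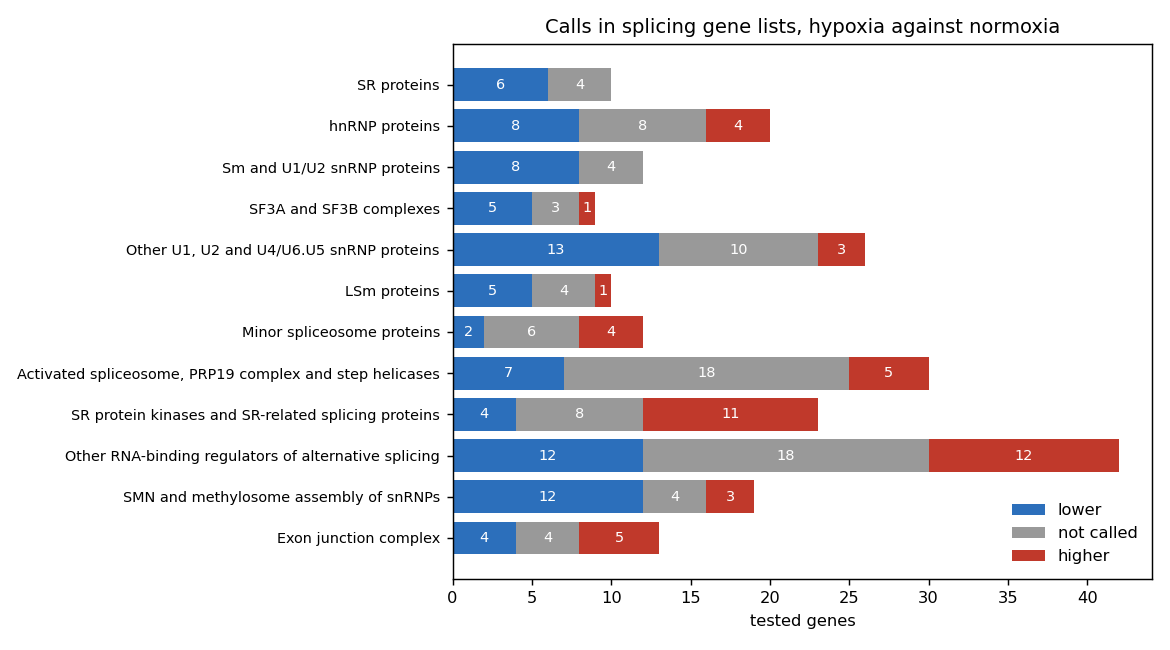
Number of tested genes that were lower, not called or higher in hypoxia-treated cells in each family and in each of 8 other lists of splicing genes (limma, adjusted p under 0.05). The SR (6 lower, 0 higher) and Snrp families (8 lower, 0 higher) have no higher call, while the SR kinases and SR-related proteins have 11 higher and 4 lower.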

How the data were processed

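Poly(A) libraries of GC-2spd cells, 3 normoxic and 3 hypoxia-treated, were compared. Reads were trimmed by the authors (Cutadapt), mapped to mm10 (HISAT2) and turned into gene values by StringTie (versions and annotation not given in the sources used here). The deposited coverage signal is the read depth of a gene and served for depth only. The deposited FPKM is scaled for length and aligned fragments. The deposited TPM lists assembled loci and annotated genes apart, and the annotated genes were analysed unscaled. Counts were not used here, so limma replaced the authors' edgeR test and depth was expressed in aligned bases, which allow no counting interval.

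Of 43432 gene IDs 42462 matched a symbol in GENCODE mouse release 21, and 20 symbols with several IDs were summed. The test was limma 3.58.1 in R 4.3.3 on log2(TPM + 1), for 13749 genes whose mean TPM reached 1 (variance trend, 2-sided, Benjamini-Hochberg over all of them, threshold 0.05). The pseudocount makes fold changes of low genes smaller. The steps were tested on simulated data. With 200 of 13749 genes changed, 0.0% were recovered at a log2 fold change of 0.3 and 57.5% at 0.585. The shares were 82.5% at 1.0 and 97.0% at 2.0. Far more genes were called here than were changed in the simulation, so these shares may not hold for the calls.

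Values per library are given for the most abundant member of each family, up to 3 called members per family and direction with the smallest adjusted p, and paralog pairs. Of each other list up to 2 called genes per direction are named. A gene that this rule selects is not reported here. Further members and Eif4a3, Magohb, Clk1, Clk2, Clk4, Srpk1 and Srpk2 were named after their values were seen. The members and lists were chosen with earlier results of these data known. Nhp2l1 was matched as Snu13, and 1 gene of 179 was not found. Assembled loci were matched by strand and at least 50% of the gene's length. Alternatives were another pseudocount, no filter, 2 scalings, FPKM, no mitochondrially encoded genes, no variance trend, the replicate number as a block, leaving out each library and, chosen after seeing the data, median-ratio scaling of the family sums, assembled loci and protein-coding nuclear genes only with TPM rescaled to them.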

Additional observations from a re-analysis of the deposited data

How the results depend on the processing

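The 27 lower members stayed between 18 and 30 and the 5 higher members between 3 and 9 under all alternatives. Higher members numbered 9 with median-ratio scaling and 3 for assembled loci, where only 46 of the members have a value. With the replicate number as a block 4 members were higher and 25 lower. Same-numbered libraries showed no visible shared effect. Their deviations correlated at 0.026, 0.033 and 0.011, and not every library correlated best with its own number. These correlations cannot show whether the libraries were handled in pairs. Of the 32 calls, 23 were the same with median-ratio scaling, 29 with quantile normalization, 29 with the block, 28 to 31 without single libraries, and 21 for assembled loci, where 4 of the called members had no value. The log2 ratio of summed expression was larger with FPKM for SR (−0.42 in place of −0.36), hnRNP (−0.15 in place of −0.10) and Snrp genes (−0.31 in place of −0.26). With median-ratio scaling, chosen after seeing the data, it was −0.22 for SR, −0.12 for Snrp, and turned to 0.045 for hnRNP and 0.092 for SF3 genes (−0.05 as deposited). The cause was not tested. Among named genes, signs turned only for uncalled members and for Rbm8a (0.51 for its assembled locus). Hnrnpd was at 0.13 for its assembled locus, and Hnrnph1 at −0.0046 with quantile normalization, −0.035 with FPKM, −0.016 without mitochondrially encoded genes, −0.070 for its assembled locus and −0.012 with protein-coding genes only. Without single libraries, log2 fold changes ranged from −0.039 to 0.27 for Srsf1, −0.53 to 0.050 for Hnrnpd, −0.030 to 0.095 for Hnrnph1 and −0.15 to 0.23 for Hnrnpll. With 3 libraries a group, members as spread as Snrpc and Hnrnpd could not be resolved.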
